A study of Mus musculus with 8 samples.

Results

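The genes described here are 41 genes of the hepatic stellate cell and of the extracellular matrix, chosen by name from the 25010 genes measured by RNA-Seq in mouse liver. They were read in 2 wild-type (WT) livers and 2 livers of LXRDKO mice, which lack both liver X receptors, LXRα from the gene Nr1h3 and LXRβ from the gene Nr1h2. The deletion is present in every tissue of the mouse rather than in one cell type, so a difference in liver can start in any cell or organ. All mice were on a C57BL/6 background and 8 wk old, were fasted for 4 to 6 h, and gave RNA from the left lobe, with no drug or diet named in the labels. Each liver was sequenced as a library of its own. The P values below rest on the spread between these few mice, moderated by the spread of the other genes. An exact permutation test of 2 livers against 2 cannot go below a two-sided P of 0.333, so the only tests given are from models fitted across all genes.

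The hepatic stellate cell lies between the hepatocytes and the sinusoidal endothelium, stores vitamin A as retinyl ester and, when quiescent, makes a thin matrix of basement membrane collagen, reelin and small proteoglycans. After injury it can become a contractile myofibroblast that secretes fibrillar collagen, and lysyl oxidases, procollagen C-proteinase and its enhancers, metalloproteinases and their TIMP inhibitors then shape the fibre. Portal fibroblasts and vascular smooth muscle cells use many of the same genes. The members are therefore given by role, as 11 collagen chains, 3 small proteoglycans, 9 markers of the quiescent stellate cell, 3 contractile and cytoskeletal genes, 9 remodelling enzymes and inhibitors, and 6 elastic fibre and matricellular genes.

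The libraries held 55772659 to 72842744 reads on genes. Values are normalized counts, the reads of a gene divided by one size factor per library, as the authors deposited them. The knockout could be seen in the targeted genes. Nr1h3 stood at 5785 and 5322 normalized counts in WT and at 1712 and 1826 in LXRDKO (log2 fold change −1.65, standard error 0.095, limma adjusted P = 0.0147), and Nr1h2 at 2987 and 3110 against 925 and 1003. Transcript of both genes thus remained in the LXRDKO libraries at about the same share of WT. Of the other stellate cell genes, Lrat, the enzyme that makes retinyl ester, was read at 683 to 1171 normalized counts over the livers, so stellate cell RNA was present in all of them.

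One library stood apart for these genes. WT replicate 1 was the lowest of the 4 livers for 34 of the 41 members (82.9%), whereas it was the lowest for 24.9% of all genes tested. WT replicate 2 lay above WT replicate 1 for 37 members (90.2%, against 49.5% of all genes). The median log2 difference over the members was 0.39 between these WT livers and 0.07 between the LXRDKO livers. Between genotypes it was 0.36, which compares means of 2 livers and so is not like for like with a difference between single livers. The median of each role is therefore given below with and without WT replicate 1.

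A single member passed the threshold of an adjusted P of 0.05 in limma, fitted to log2(normalized count + 1) for the 15578 genes whose mean reached 10 normalized counts. Pcolce2, the second enhancer of procollagen C-proteinase, was down-regulated in LXRDKO, and no member was up-regulated. Over all genes tested the share called was 0.321%, with 0.135% higher and 0.186% lower. All 41 members passed the filter on low values, and 35 of them had a log2 fold change above 0, as had 49.1% of all genes. The other scalings, filters and tools gave 33 to 36, though only 38 members were tested at a mean of at least 50 normalized counts. This count fell to 26 of 41 once WT replicate 1 was dropped, and dropping WT replicate 2 instead raised it to 39. Dropping LXRDKO replicate 1 gave 36, and dropping LXRDKO replicate 2 gave 33. Before adjustment, 12 members had a P under 0.05 with a higher level in LXRDKO, beside 5.77% of all genes tested, and Pcolce2 had one with a lower level, beside 7.5%. DESeq2 called 3 members, Dcn and Reln higher and Pcolce2 lower, beside 3.59% of the genes it tested (1.56% higher and 2.03% lower), and edgeR called Pcolce2 alone, beside 0.315%. The genotypes did not overlap for 20 members, 19 higher in LXRDKO and 1 lower, where 21.7% of all genes were higher without overlap and 23% lower. The median log2 fold change of the members was 0.36, beside −0.0046 over all genes, and it was 0.13 when WT replicate 1 was left out. Both LXRDKO livers exceeded WT replicate 2 for 20 members, a count to set beside 36.7% of all genes. In liver tissue, more cells of a type and more RNA per cell cannot be told apart.

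**Figure D1:**
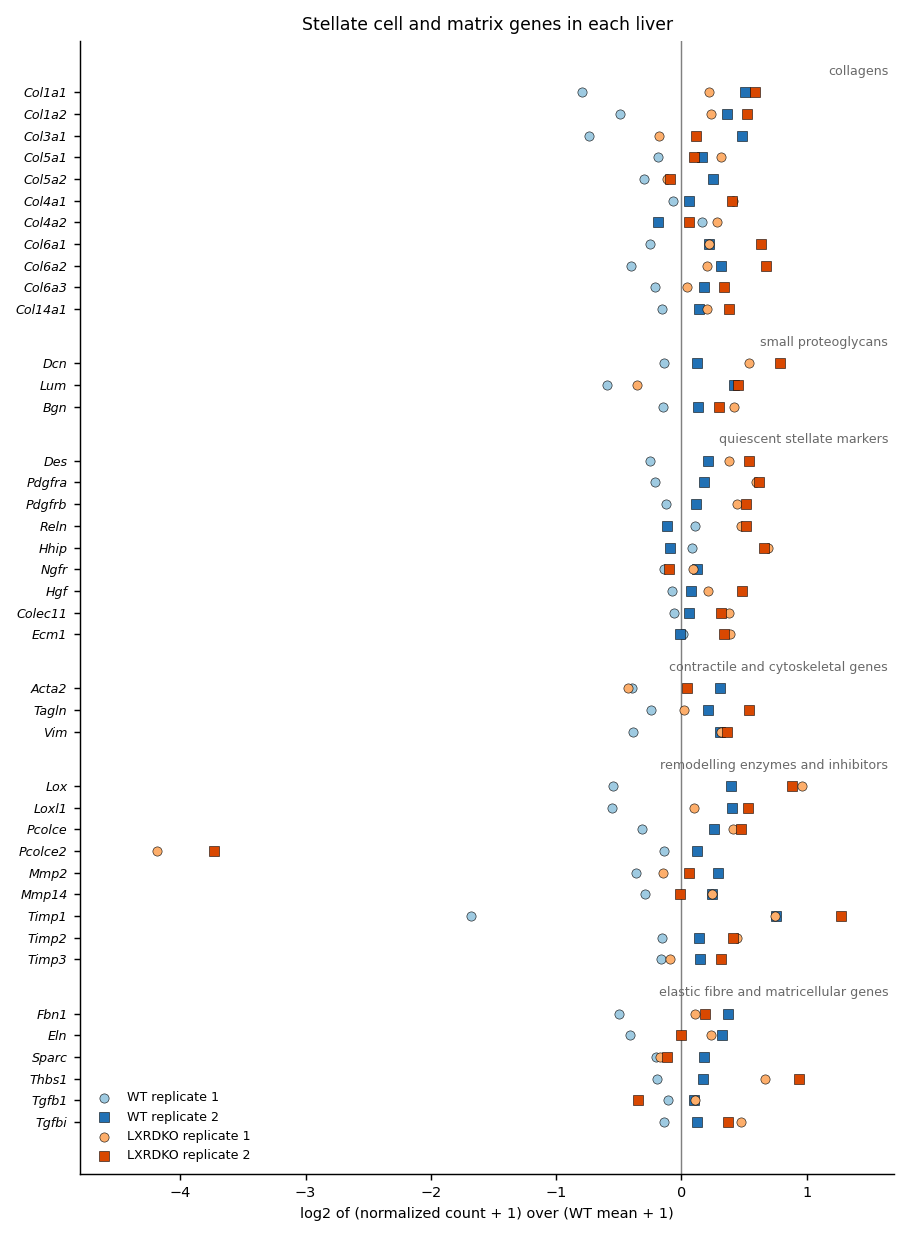
Normalized count of each member in each liver, as the log2 of its value plus 1 over the WT mean plus 1, grouped by role; circles are replicate 1 and squares replicate 2, blue for WT and orange for LXRDKO. WT replicate 1 is the leftmost point for 34 of 41 genes, and Pcolce2 is the gene whose LXRDKO points lie far to the left.

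Pcolce2 encodes a secreted glycoprotein that binds procollagen and speeds removal of its C-terminal propeptide. Its value was 62.7 and 75.5 normalized counts in the WT livers against 2.85 and 4.29 in the LXRDKO livers. The recovered reads were 55 and 89 in WT and 3 and 4 in LXRDKO, so the gene was near its counting floor without the receptors and the groups lay far apart. The log2 fold change was −3.95 (standard error 0.41, limma adjusted P = 0.0432), and it ranked 4 by size among the 29 genes that limma called lower. From the summed reads, 144 in WT and 7 in LXRDKO, the level was 19.9-fold lower, with a 95% interval of 9.41 to 50.3 that covers counting error only. DESeq2 and edgeR, run on the recovered reads, called Pcolce2 as well (adjusted P = 4.09e-06 and 0.0431). With all livers kept, its log2 fold change ran from −4.29 to −2.74 over the other pseudocounts, filters, scalings and tools. The limma call was kept without WT replicate 1 (adjusted P = 0.038), but it was lost without WT replicate 2 (0.0609), without LXRDKO replicate 1 (0.180) and without LXRDKO replicate 2 (0.142), with the log2 fold change between −4.18 and −3.72 throughout.

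The gene spans chr9:95637601-95698096 on the plus strand of GRCm38, and no exon of another gene overlaps its exons. Its relative Pcolce lies at chr5:137605103-137613784 on the minus strand. Pcolce codes for the other enhancer of the same proteinase. It was read at 372 and 553 normalized counts in WT and at 614 and 644 in LXRDKO, without overlap between the groups (log2 fold change 0.47, standard error 0.21, limma adjusted P = 0.412), though the log2 fold change was 0.19 with WT replicate 1 left out and 0.76 with WT replicate 2 left out. In RPKM, the reads per kilobase of exon scaled to an equal number of reads per library, Pcolce was also the more abundant of the pair, at a mean of 1.93 in WT and 2.73 in LXRDKO against 0.239 and 0.0128 for Pcolce2. Exons of Pcolce overlap those of Fbxo24 on the same strand, so some reads could belong to either.

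The upstream DNA of Pcolce2 is shown because it is the member that limma called, and that of Reln because it is the quiescent stellate marker that DESeq2 called. The bases are from RefSeq on GRCm38.p6, run 5′ to 3′ on the strand of the gene, and lie before the RefSeq start of transcription where no annotated exon covers them. Capitals mark the GC box GGGCGG, or its complement, where a script found it.
Pcolce2, chr9:95637378-95637600: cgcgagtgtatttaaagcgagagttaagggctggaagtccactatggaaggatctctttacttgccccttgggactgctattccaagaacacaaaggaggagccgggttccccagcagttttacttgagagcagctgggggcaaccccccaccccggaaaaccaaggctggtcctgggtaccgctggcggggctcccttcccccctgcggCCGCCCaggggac
Reln, chr5:22344706-22344955: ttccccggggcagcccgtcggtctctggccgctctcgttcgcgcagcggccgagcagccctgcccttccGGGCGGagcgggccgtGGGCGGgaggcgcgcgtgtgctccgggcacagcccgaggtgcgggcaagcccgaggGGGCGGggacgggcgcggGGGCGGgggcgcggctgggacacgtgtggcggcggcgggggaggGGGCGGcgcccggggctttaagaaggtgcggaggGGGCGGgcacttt
The Pcolce2 stretch held 1 GC box at its 3′ end and had a GC content of 60.1%. That of Reln held 6 GC boxes at a GC content of 80%.

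Liver X receptors bind, with RXR, direct repeats of the half-site AGGTCA spaced by 4 bases of any kind (DR4). In the 250 bases before the RefSeq start, which were available for 29 members in 31 windows, neither the perfect DR4 nor the lone half-site AGGTCA was found on either strand. Of 32851 such windows over all genes, 5 held the perfect repeat (0.0152%) and 14% the half-site, which every perfect repeat also counts toward. The GC box was in 20 of the 31 member windows (64.5%, against 32.7% of all windows), the CCAAT box in 7 (22.6%, against 33.8%), TATAAA in 3 (9.68%, against 12.4%) and the AP-1 site TGAGTCA in 2 (6.45%, against 4.46%). A match is only a run of letters. The perfect repeat is so rare over all windows that its absence from 31 of them tells nothing about the members. Imperfect repeats and DNA outside these windows were not searched. The members without a window were Col14a1, Col1a1, Col5a2, Dcn, Eln, Lox, Loxl1, Lum, Mmp2, Pdgfrb, Tagln and Thbs1.

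The markers of the quiescent stellate cell were the role that differed least between the WT livers. Their summed level was 12777 and 12680 normalized counts in WT against 16896 and 16807 in LXRDKO, a ratio of 1.32, and the groups were separated by far more than the livers within them. Most of that sum came from Ecm1, Reln and Colec11, and 6 of the 9 markers were lowest in WT replicate 1 whereas Reln, Hhip and Ecm1 were lowest in WT replicate 2. All 9 markers had a log2 fold change above 0, as had 49.1% of all genes, and their median was 0.48. The log2 fold change of Ngfr was 0.0013 and turned sign under upper-quartile scaling and in DESeq2. The other 8 did not overlap between genotypes, all higher in LXRDKO, where 21.7% of all genes were higher without overlap. The median was 0.36 without WT replicate 1, and the median difference between the WT livers was 0.15. Before adjustment 6 of the 9 had a limma P under 0.05 with a higher level, beside 5.77% of all genes tested, and none passed after it. DESeq2 called 1 of the 9 higher, beside 1.56% of the genes it tested.

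Reln was that one. Reelin, a large secreted glycoprotein known from neuronal migration, marks stellate cells among the cells of the liver. It was read at 3109 and 2656 normalized counts in WT and at 4007 and 4130 in LXRDKO (log2 fold change 0.50, standard error 0.11, limma adjusted P = 0.157, DESeq2 adjusted P = 0.0320). Here WT replicate 1 was the higher of the WT livers, and without it the log2 fold change was 0.61. Ecm1, a secreted protein that holds latent TGF-β inactive in the liver matrix, had the highest level per length of all members, at a mean RPKM of 41.2 in WT and 55.1 in LXRDKO. Its normalized counts were 6569 and 6470 in WT and 8521 and 8262 in LXRDKO, with WT livers that nearly coincided (log2 fold change 0.36, standard error 0.08, limma adjusted P = 0.179).

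The platelet-derived growth factor receptors, which drive stellate cell growth, lay side by side. Pdgfra stood at 314 and 411 normalized counts in WT and at 547 and 558 in LXRDKO (log2 fold change 0.62, standard error 0.17, limma adjusted P = 0.242). For Pdgfrb the values were 570 and 674 against 848 and 888 (log2 fold change 0.48, standard error 0.13, limma adjusted P = 0.235). Neither overlapped between genotypes, and WT replicate 1 was the lowest liver for both. Hhip, which binds hedgehog ligands and keeps them from their receptor, was a low gene with 91.2 and 80.6 normalized counts in WT against 140 and 136 in LXRDKO (log2 fold change 0.68, standard error 0.22, limma adjusted P = 0.295). Colec11, a collectin of the lectin complement pathway, was read at 1410 and 1531 in WT and at 1916 and 1829 in LXRDKO (log2 fold change 0.35, standard error 0.10, limma adjusted P = 0.248).

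The remaining markers had no P under 0.05 even before adjustment. Des, the intermediate filament of muscle and stellate cells, had 173 and 239 normalized counts in WT against 269 and 299 in LXRDKO. Hgf, the growth factor that stellate cells supply to hepatocytes, had 338 and 375 against 412 and 497. Both were without overlap, with log2 fold changes of 0.48 and 0.35, that of Des being 0.25 without WT replicate 1 and that of Hgf 0.21 without LXRDKO replicate 2. Ngfr, the low-affinity neurotrophin receptor, was the exception, at 203 and 244 in WT and 238 and 208 in LXRDKO, with no separation of the genotypes.

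The collagens differed widely between the WT livers. Their summed level was 14650 and 19273 normalized counts in WT against 19567 and 21106 in LXRDKO, so that WT replicate 2 lay next to LXRDKO replicate 1. Of the 11 chains, 10 had a log2 fold change above 0 (9 in DESeq2 and edgeR, where Col3a1 turned), with a median of 0.30, and none passed limma, DESeq2 or edgeR. The median was 0.04 without WT replicate 1, and the median difference between the WT livers was 0.47. Before adjustment 1 chain, Col4a1, had a limma P under 0.05 with a higher level, beside 5.77% of all genes tested. The genotypes did not overlap for 3 chains, all higher in LXRDKO, where 21.7% of all genes were higher without overlap.

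The fibrillar chains, which make the scar collagens of types I, III and V, showed this most clearly. All 5 were lowest in WT replicate 1, all 5 overlapped between genotypes, and for none did both LXRDKO livers exceed WT replicate 2. Col1a1 had 585 and 1445 normalized counts in WT against 1181 and 1529 in LXRDKO, and Col1a2 had 748 and 1360 against 1239 and 1514. Col3a1 had 1609 and 3750 in WT and 2367 and 2909 in LXRDKO, so both LXRDKO livers lay inside the WT range. Its log2 fold change was 0.10 (standard error 0.38), was −0.51 without WT replicate 1, and was below 0 in DESeq2 and edgeR. That of Col1a1 was 0.55 (standard error 0.42) and −0.11 without that liver, and that of Col1a2 0.44 (standard error 0.29) and 0.01 (0.0101). Col5a1 and Col5a2, the minor fibrillar chains, had log2 fold changes of 0.22 and −0.08, and of 0.040 and −0.35 without it.

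Col4a1, a chain of the network collagen of the basement membrane, had the smallest standard error of the 11. It was read at 3157 and 3455 normalized counts in WT and at 4390 and 4368 in LXRDKO (log2 fold change 0.41, standard error 0.09, limma adjusted P = 0.171). Col4a2, its partner in the same triple helix, had 3590 and 2809 in WT and 3892 and 3336 in LXRDKO, which overlapped (log2 fold change 0.18, and 0.0055 without WT replicate 2). These genes lie head to head on chromosome 8, their first exons overlap on opposite strands, and whether the reads were counted by strand is not given in the sources used here.

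Type VI beaded filaments and the fibril-associated chain Col14a1 followed with wider spreads. Col6a1 stood at 552 and 766 normalized counts in WT and at 769 and 1025 in LXRDKO, without overlap but with LXRDKO replicate 1 scarcely above WT replicate 2. Col14a1 stood at 2649 and 3259 against 3396 and 3847, also without overlap. Their log2 fold changes were 0.45 and 0.30, and those of Col6a2 and Col6a3, which overlapped, 0.49 and 0.21. Without WT replicate 1 they were 0.21 for Col6a1, 0.15 for Col14a1, 0.13 for Col6a2 and 0.011 for Col6a3.

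Ratios of chains within a liver do not depend on the size factors. Per kilobase of exon, Col1a1 over Col1a2 was 1.48 and 2.01 in WT and 1.80 and 1.91 in LXRDKO, with WT replicate 1 below the other livers. Col4a1 over Col4a2 was 0.780 and 1.09 in WT and 1.00 and 1.16 in LXRDKO. This ratio too was lowest in WT replicate 1. Col6a3 over Col6a1 ran from 0.407 and 0.384 in WT to 0.348 and 0.321 in LXRDKO, with no overlap, while Col6a1 over Col6a2 spread from 2.69 to 3.18 with the LXRDKO livers inside the WT range. Col5a1 over Col5a2 was 3.31 and 2.89 in WT and 4.14 and 3.49 in LXRDKO, also with no overlap. No test was made of these ratios.

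**Figure D2:**
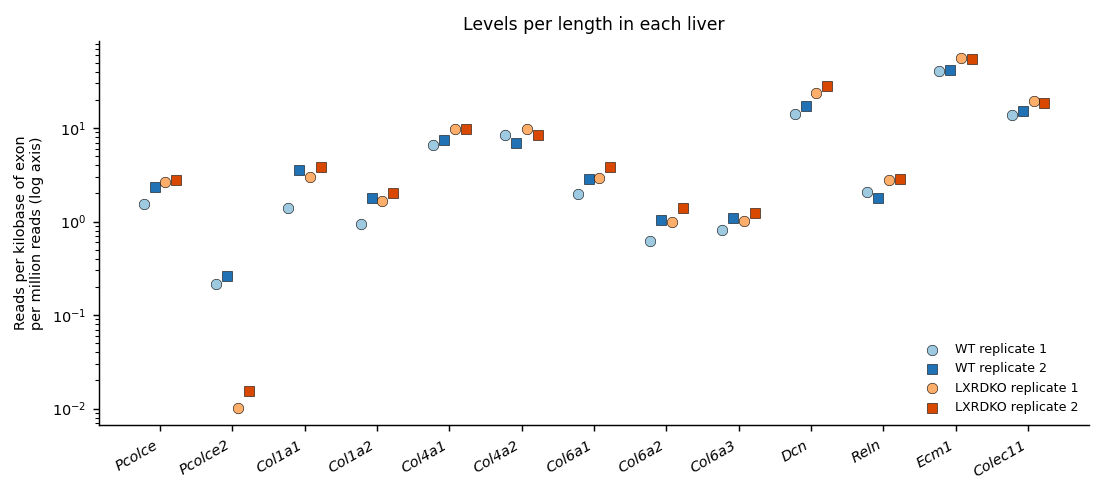
RPKM, on a log axis, in each liver for the procollagen C-proteinase enhancers, the chains of collagens I, IV and VI, and 4 members with high or called levels. Pcolce2 drops from a WT mean of 0.239 to 0.0128, while the Ecm1 points lie highest, at means of 41.2 and 55.1.

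Decorin, a proteoglycan that binds collagen fibrils and TGF-β, was the other member that DESeq2 called higher in LXRDKO. Dcn was read at 5219 and 6248 normalized counts in WT and at 8316 and 9892 in LXRDKO, so that the lowest LXRDKO liver was well clear of the highest WT liver. The log2 fold change was 0.67 (standard error 0.14, limma adjusted P = 0.145, DESeq2 adjusted P = 0.00357), and 0.54 without WT replicate 1. Biglycan, encoded by Bgn, had 5332 and 6454 against 7866 and 7252, also without overlap (log2 fold change 0.36, standard error 0.12, limma adjusted P = 0.304). Lum, the keratan sulfate proteoglycan lumican, had 227 and 457 in WT and 267 and 467 in LXRDKO, and the first liver of each genotype matched the first liver of the other more closely than its own partner. The log2 fold change of Bgn was 0.23 and that of Lum −0.37 without WT replicate 1. Over the 3 proteoglycans the median log2 fold change was 0.36, or 0.23 once WT replicate 1 was left out and 0.64 once WT replicate 2 was. They summed to 10779 and 13160 normalized counts in WT against 16448 and 17611 in LXRDKO.

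Contractile genes of the activated stellate cell, which vascular smooth muscle also expresses, gave no call and no unadjusted P under 0.05. Acta2, smooth muscle α-actin and the classical sign of activation, had 76.4 and 126 normalized counts in WT against 75.0 and 104 in LXRDKO (log2 fold change −0.15, standard error 0.34). LXRDKO replicate 1 was the lowest liver, just under WT replicate 1, and LXRDKO replicate 2 lay inside the WT range. Tagln, transgelin, had 258 and 354 against 310 and 444, which overlapped (log2 fold change 0.30). Vim, the intermediate filament vimentin, had 971 and 1570 in WT and 1580 and 1632 in LXRDKO, with LXRDKO replicate 1 scarcely above WT replicate 2 (log2 fold change 0.38, standard error 0.23). Without WT replicate 1 the log2 fold change of Vim was 0.032 and that of Tagln 0.068, and without WT replicate 2 that of Vim was 0.73. The median of the 3 genes was 0.30 with all livers, 0.032 without WT replicate 1 and 0.039 without LXRDKO replicate 2.

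Among the remodelling enzymes and inhibitors, all 9 were higher in WT replicate 2 than in WT replicate 1. Apart from Pcolce2 none was called. Their median log2 fold change was 0.39 and was −0.03 without WT replicate 1. Timp2, an inhibitor that also helps to activate pro-MMP2, was the member of this role with an unadjusted P under 0.05 for a higher level, at 745 and 912 normalized counts in WT against 1129 and 1104 in LXRDKO (log2 fold change 0.44, standard error 0.13, limma adjusted P = 0.280). Lox, the lysyl oxidase that crosslinks collagen and elastin, was scarce, with 13.7 and 27.2 against 40.8 and 38.6 normalized counts (log2 fold change 1.00, standard error 0.43, limma adjusted P = 0.400). Its groups did not overlap, and the log2 fold change was 0.53 without WT replicate 1. For Timp2 it was 0.29.

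Timp1, an inhibitor often induced in injured liver, had 3.42 normalized counts in WT replicate 1, from 3 reads, and 22.9 in WT replicate 2, beside 22.8 and 33.2 in LXRDKO. The log2 fold change was 1.47 (standard error 0.83) and 0.25 without WT replicate 1. Loxl1, the oxidase of elastic fibres, overlapped at 111 and 216 against 175 and 236. Mmp14, the membrane-bound activator of MMP2, had the highest level per length in this role and stood at 1573 and 2284 in WT and at 2287 and 1917 in LXRDKO. Mmp2 (log2 fold change −0.01), Mmp14 (0.14) and Timp3 (0.12) all overlapped between genotypes, and exons of Timp3 are overlapped by Syn3 on the other strand.

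**Figure D3:**
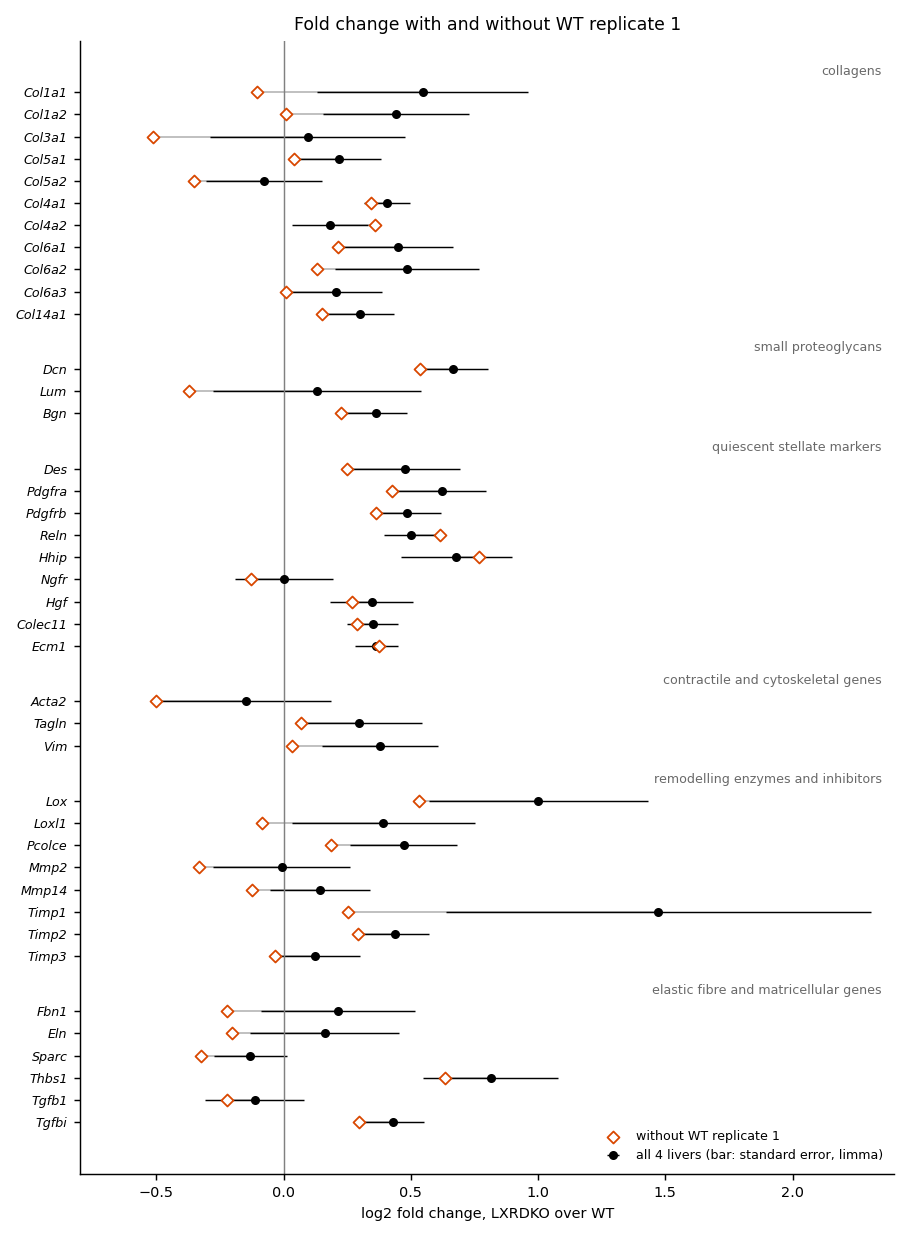
Log2 fold change of LXRDKO over WT for 40 members, with all 4 livers (black, bars are the standard error from limma) and without WT replicate 1 (open diamonds); Pcolce2, at −3.95, is left off the axis. The diamonds of Reln, Hhip and Ecm1 stay at or right of the black points, whereas those of Col1a1, Col3a1, Timp1 and Fbn1 move far left.

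Elastic fibre and matricellular genes were the role with the smallest median, 0.19, which became −0.21 without WT replicate 1. Thbs1, the matricellular activator of latent TGF-β, was read at 55.9 and 72.1 normalized counts in WT and at 103 and 123 in LXRDKO (log2 fold change 0.81, standard error 0.27, limma adjusted P = 0.300). Without WT replicate 1 its log2 fold change was 0.63. Tgfbi, an integrin-binding matrix protein induced by TGF-β, had 2029 and 2444 against 3116 and 2891 (log2 fold change 0.43, standard error 0.12, limma adjusted P = 0.244). These were the members of the role whose groups did not overlap. Tgfb1 itself had 512 and 594 normalized counts in WT against 598 and 434 in LXRDKO (log2 fold change −0.11, standard error 0.19), so its LXRDKO livers spanned the WT ones. Sparc, a collagen-binding matricellular protein, was highest in WT replicate 2 at 3467 and lay between 2654 and 2828 in the other livers. Fbn1, the fibrillin of microfibrils, had 183 and 335 in WT and 279 and 295 in LXRDKO, and Eln, elastin, 124 and 207 against 196 and 165.

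Further genes of the same pathways came from 10 lists of names. To set beside their counts, 49.1% of all genes tested had a log2 fold change above 0. An unadjusted limma P under 0.05 was reached by 5.77% with a higher level and by 7.5% with a lower one. Limma called 0.321% of them, and DESeq2 called 1.56% of the genes it tested higher and 2.03% lower. The γ3 chain of laminin was the gene of these lists that limma called, and edgeR called it alone. Lamc3, a basement membrane component, stood at 227 and 278 normalized counts in WT and at 836 and 730 in LXRDKO (log2 fold change 1.63, standard error 0.17, limma adjusted P = 0.0417, DESeq2 adjusted P = 1.37e-11). Of 15 basement membrane genes, 6 had a log2 fold change above 0 and 9 below, with an unadjusted P under 0.05 for 4 and 3 of them. Among these Lama4 had −0.64 without being called. None of the 22 genes of collagen processing tested, which hydroxylate, fold and export the chains, had a P under 0.05 even before adjustment (13 higher, 9 lower, median log2 fold change 0.06).

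TGF-β signalling genes gave 12 higher and 13 lower of 25 tested, with a median of −0.04, an unadjusted P under 0.05 for 3 and 2 of them and no limma call. Ctgf (Ccn2), a matricellular target of TGF-β and of YAP, stood out at 246 and 368 normalized counts in WT against 1200 and 920 in LXRDKO (log2 fold change 1.80, standard error 0.24, limma adjusted P = 0.0706, DESeq2 adjusted P = 8.43e-10). Ltbp4, which tethers latent TGF-β to the matrix, had −0.49 (limma adjusted P = 0.190, DESeq2 adjusted P = 0.0470) and Smurf1 −0.46. DESeq2 thus called 1 gene of the list higher and 1 lower, beside 1.56% and 2.03% of the genes it tested. Among 17 other collagens tested, 6 were higher and 11 lower, an unadjusted P under 0.05 was reached by 1 and 2 of them, and limma called none. Col15a1, a collagen of the endothelial basement membrane zone, had 433 and 370 normalized counts in WT against 132 and 184 in LXRDKO (log2 fold change −1.35, standard error 0.22, limma adjusted P = 0.108, DESeq2 adjusted P = 8.87e-05). Col4a6 and Col13a1, with no call by either tool, had log2 fold changes of 1.60 and −0.98.

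Other matrix glycoproteins were higher for 18 of 23 tested, beside 49.1% of all genes, and 6 of them had an unadjusted P under 0.05, beside 5.77%. Limma called none and DESeq2 called 4 higher, beside 1.56% of the genes it tested. Prelp, a leucine-rich proteoglycan that anchors basement membranes, had 2960 and 2731 normalized counts in WT against 4436 and 4047 in LXRDKO (log2 fold change 0.58, limma adjusted P = 0.118, DESeq2 adjusted P = 0.00344). Efemp1, fibulin-3, and Matn2, matrilin-2, had log2 fold changes of 0.85 and 1.36 and were likewise called by DESeq2 only. Of 20 other proteases and inhibitors tested, 14 were higher and 6 lower, with an unadjusted P under 0.05 for 4 and 2 of them and no limma call. Mmp7, the matrilysin of epithelia, stood at 7.98 and 16.1 normalized counts in WT and at 75.0 and 74.0 in LXRDKO (log2 fold change 2.61, standard error 0.42, limma adjusted P = 0.107, DESeq2 adjusted P = 0.000869). Mmp13, a collagenase, had a log2 fold change of 2.13, and Mmp9, a gelatinase of leukocytes, −1.71.

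Other genes known from stellate cells summed to 36662 and 39582 normalized counts in WT against 40434 and 36446 in LXRDKO, a ratio of 1.01 with full overlap, so their sum did not separate the genotypes as that of the quiescent markers did. Cxcl12, a chemokine gene named after its values were seen, made up most of that sum at 23932 to 28064 over the livers. Of the 17 genes, 14 were higher, beside 49.1% of all genes, and 3 were lower. The median log2 fold change was 0.30. Before adjustment 4 of the higher and 1 of the lower genes had a P under 0.05, beside 5.77% and 7.5% of all genes tested. Limma called none and DESeq2 called 2 higher, beside 1.56% of the genes it tested. Lhx2, a transcription factor that keeps stellate cells quiescent, had 167 and 160 normalized counts in WT against 329 and 301 in LXRDKO (log2 fold change 0.94, standard error 0.17, limma adjusted P = 0.127, DESeq2 adjusted P = 0.00630). Gdf2, which encodes BMP9, had 894 and 711 against 1437 and 1271 (log2 fold change 0.76, limma adjusted P = 0.139, DESeq2 adjusted P = 0.00408). Nes, the intermediate filament nestin, had the opposite sign, at −0.93. Lrat differed between the WT livers, at 1040 and 683, with its LXRDKO livers at 953 and 1171, and gave no P under 0.05.

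Ligands and partners of PDGF and HGF gave 7 higher and 3 lower of 10, with Spint1, an inhibitor of the HGF activator, at 1.44 (limma adjusted P = 0.161, DESeq2 adjusted P = 0.0249) and both Hgfac and Met, the HGF receptor, at −0.36. In the hedgehog pathway 7 of 11 tested were higher, among them Boc (0.93). Collagen receptors and integrins were higher for 6 of 9, with Itga2 at 1.35 and Ddr1 at 0.69. Before adjustment 7, 2 and 2 genes of the 3 lists had a P under 0.05. Over all genes tested, 5.77% were higher and 7.5% lower with such a P, and 49.1% were higher at any size. Limma called no gene of the 3 lists, and DESeq2 called Spint1 alone, beside 3.59% of the genes it tested.

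Markers of some other liver cells had summed levels that did not overlap between genotypes. Among all genes tested, 49.1% were higher in LXRDKO, and limma called 0.135% higher and 0.186% lower. Before adjustment 5.77% had a limma P under 0.05 with a higher level and 7.5% with a lower one. DESeq2 called 1.56% of the genes it tested higher and 2.03% lower. The 8 Kupffer cell markers summed to 10534 and 11744 normalized counts in WT against 4802 and 2578 in LXRDKO, a ratio of 0.331, with 7 of 8 lower and Cd5l, Clec4f and Marco called by limma. The 8 sinusoidal endothelial markers gave 15775 and 14363 against 12909 and 9730, 7 of 8 lower, with Kdr called (limma adjusted P = 0.0498). All 6 biliary markers were higher, from sums of 2084 and 3599 in WT to 4572 and 5426 in LXRDKO, of which 3 had an unadjusted P under 0.05, limma called none and DESeq2 called Epcam. All 7 lymphocyte markers were lower, with sums of 195 and 297 against 122 and 90.0, and 4 had an unadjusted P under 0.05 with no call by either tool.

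Some other cells share matrix genes with the stellate cell. The 6 portal fibroblast markers summed to 2271 and 3148 normalized counts in WT against 2794 and 3672 in LXRDKO, which overlapped and was lowest in WT replicate 1. The 6 mesothelial markers gave 558 and 462 against 451 and 537, and the 6 vascular smooth muscle markers 741 and 688 against 655 and 664. Biliary markers were also lowest in WT replicate 1. The part of any of these cells in the values of the matrix genes was not tested. The 8 hepatocyte markers summed to between 6517421 and 7955351 normalized counts over all livers, and 5 neutrophil markers to no more than 27.9. No gene of any list was at 0 reads in all 4 livers.

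**Figure D4:**
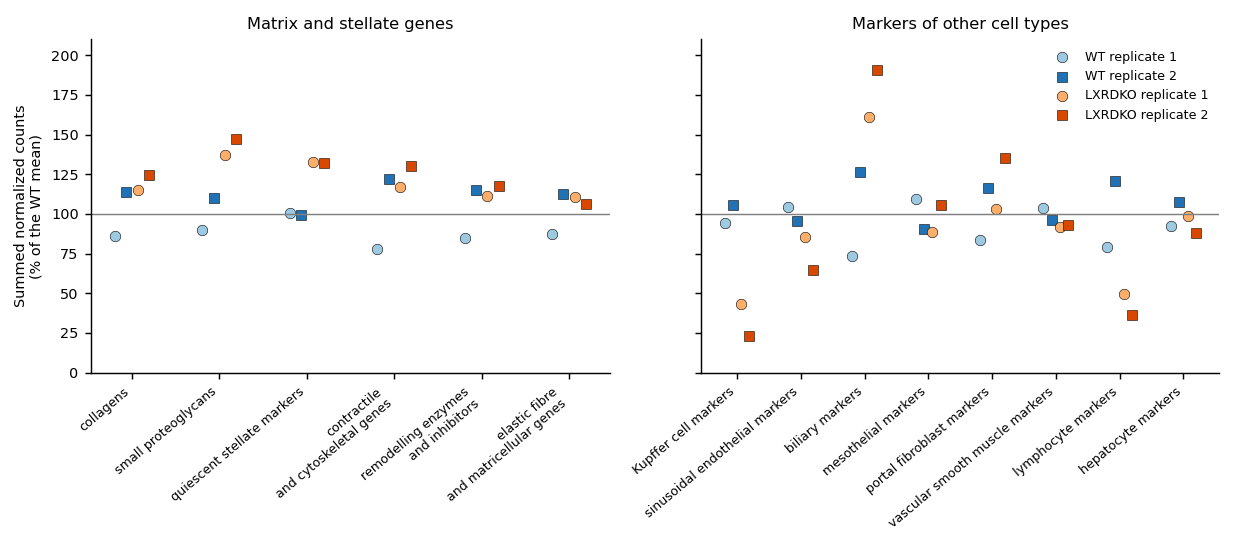
Summed normalized counts of each role of matrix genes (left) and of each list of markers of other cell types (right), as a percentage of the WT mean, in each liver. The quiescent stellate markers show WT livers that coincide and LXRDKO livers above them, with a ratio of 1.32, the collagens show WT livers far apart, and the Kupffer cell markers lie at a ratio of 0.331.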

How the data were processed

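RNA was measured in 4 livers, and the 4 ATAC-Seq samples of the same series were not analysed here. Per the labels and the study's methods, the authors captured mRNA with the KAPA Stranded kit, read 50 bp single ends on a HiSeq3000 and aligned them to mm10 with STAR 2.6.0c; the read counter, its strand setting and the annotation release are not given in the sources used here. The deposited values are a signal, counts per gene that the authors divided by DESeq2 size factors; 100% were whole multiples of what 1 read is worth (within 0.01 read), so reads were recovered. The size factors were 0.877, 1.18, 1.05 and 0.933.

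Log2(normalized count + 1) was tested with limma 3.58.1 in R 4.3.3 (empirical Bayes with a trend, mean of at least 10 normalized counts, Benjamini-Hochberg over 15578 genes, threshold 0.05), since the table is not of raw counts. DESeq2 1.42.0 and edgeR 4.0.16 (quasi-likelihood test) were run on the recovered reads. The sample titles name no pairing of mice by replicate number. The correlation of replicate deviations between genotypes was 0.0031 over all genes tested, which cannot exclude a pairing. Other alternatives were pseudocounts of 0.5 and 8, other filters, scalings and moderation, a replicate block, a threshold of 0.10 and leaving out each liver. The tests were tested on simulated data. The changes planted there were larger than those of any member but Pcolce2, and no shift of a single liver was planted.

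Members and lists were chosen with earlier results of these data known. Per-liver values are given for members with an unadjusted P under 0.05, a DESeq2 call or no overlap, and in each role for the highest per length and the widest gap between livers; up to 3 genes of each pathway list with the smallest P under 0.05 are named, and cell type genes where called. A few further members and stellate genes were added after their values were seen. Positions and exon lengths are from GENCODE M21 on GRCm38, which matched 24987 gene identifiers. List genes Mmp10 and Camp were not matched. The values of some genes that the rule names are not reported here.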

Additional observations from a re-analysis of the deposited data

How the results depend on the processing

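Over all genes tested, limma called 50 (21 higher, 29 lower). It called 25 (10 and 15) at a mean of at least 50 normalized counts. Without the trend it called 1 (0 and 1), where 1873 genes had an unadjusted P under 0.05. At a threshold of 0.10 it called 138 (55 and 83). With the replicate number as a block it called 90 (35 and 55), though the sample titles name no such pairing. DESeq2 called 567 (246 and 321). Leaving out 1 liver gave from 2 to 262 calls (0 to 134 higher, 2 to 128 lower), with 262 without WT replicate 1, 157 without WT replicate 2, 2 without LXRDKO replicate 1 and 8 without LXRDKO replicate 2; a lone liver is then assumed to vary like the other group.

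Of the members, Pcolce2 was the 1 called. The count was 0 with no filter on low values (adjusted P = 0.0581), at a mean of at least 50 normalized counts, where Pcolce2 is not tested, and in limma without the trend (0.212), for all members and for the remodelling role alike. DESeq2 called 3, with 1 small proteoglycan (Dcn) and 1 quiescent marker (Reln) beside Pcolce2. Leaving out 1 liver gave 0 to 1, and the replicate block changed no count of members.

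Leaving out 1 liver moved the median log2 fold changes, from 0.13 to 0.53 for all members, 0.040 to 0.47 for collagens, 0.23 to 0.64 for small proteoglycans, 0.36 to 0.52 for quiescent markers, 0.032 to 0.52 for contractile genes, −0.033 to 0.58 for remodelling genes and −0.21 to 0.55 for elastic fibre and matricellular genes. The lowest of each came without WT replicate 1. No median changed sign under another scaling, filter, pseudocount or tool. Signs turned for Col3a1 in DESeq2 (−0.0226) and edgeR (−0.0172), for Ngfr with upper-quartile scaling (−0.0021) and DESeq2 (−0.0031), and for Mmp2 with scaling to the library total (0.047). When 1 liver was left out, the log2 fold change ranged from −0.11 to 1.20 for Col1a1, −0.51 to 0.71 for Col3a1, −0.35 to 0.20 for Col5a2, −0.37 to 0.64 for Lum, −0.13 to 0.13 for Ngfr, −0.50 to 0.21 for Acta2, −0.087 to 0.87 for Loxl1, −0.33 to 0.32 for Mmp2, −0.13 to 0.41 for Mmp14, −0.082 to 0.33 for Timp3, −0.22 to 0.65 for Fbn1, −0.20 to 0.53 for Eln, −0.32 to 0.061 for Sparc and −0.34 to 0.12 for Tgfb1. The cause was not tested. At 3 and 4 reads in LXRDKO, depth limits the size of the Pcolce2 difference, and 2 livers a group limit the rest.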
